A study of Mus musculus with 30 samples.

Results

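The genes described here are 10 markers of pericytes, measured by RNA-seq and ATAC-seq in endothelial cells (ECs) and other cells of the adult mouse brain. They were taken as a list of names (Pdgfrb, Rgs5, Kcnj8, Abcc9, Cspg4, Vtn, Notch3, Anpep, Higd1b and Atp13a5), and all 10 were found among 21820 protein-coding genes. Pericytes are mural cells: they lie on the abluminal side of capillaries, share a basement membrane with the ECs and are recruited and kept there by platelet-derived growth factor B, which ECs release. In the brain they are abundant relative to other organs and take part in forming and maintaining the blood-brain barrier. Capillary ECs and pericytes are hard to pull apart when tissue is dissociated, so transcripts of these genes serve as a gauge of mural cell RNA in preparations of ECs.

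The RNA-seq libraries formed 4 groups, all from adult male mice. Freshly dissociated brain cells of Tie2-GFP mice, in which the Tie2 promoter drives GFP in ECs, were sorted by flow cytometry into GFP-positive cells (acutely isolated ECs, 2 libraries) and GFP-negative cells (2 libraries). The paper states that its adult brain EC data join a new cerebrum set with a cerebellum set published earlier. How the regions divide over the libraries is not clear from its wording. Primary brain ECs were grown for 8 days in wells and selected early with puromycin, a toxin that ECs survive because they carry the efflux pump P-glycoprotein. WT cultures (6 libraries) came from C57BL/6J mice (replicates 1 and 2) or from Ctnnb1flex3/+;Tie2-GFP mice that lack Cre (replicates 3 to 6). Stabilized cultures (4 libraries) came from Ctnnb1flex3/+;Pdgfb-CreER;Tie2-GFP mice given 4-hydroxytamoxifen at postnatal day 10, which activates Cre, driven by the Pdgfb promoter in ECs, to delete an exon of Ctnnb1 and so stabilize beta-catenin. The Ctnnb1flex3/+;Tie2-GFP controls were given the drug at the same age, and for the C57BL/6J mice the study's wording leaves this unclear. Each pair of culture replicates was 2 wells of 1 experiment on pooled brains, so p-values measure the spread between these samples, which may be technical. In RNA-seq, WT replicates 1 and 2 and stabilized replicates 1 and 2 were isolated by papain digestion (method A), and the others by homogenization followed by collagenase and dispase (method B). Puromycin differed too: method B used a higher dose from plating, and method A a lower dose from the day after, kept slightly longer. Isolation method, as used below, therefore includes the puromycin regimen. In ATAC-seq, only WT replicates 1 and 2 were of method A, and both stabilized libraries were of method B. WT replicates 3 and 4 were sequenced at another facility with 150 cycles and the other cultures with 36, against 75 for the sorted cells, so culture and read length cannot be told apart in the comparisons with sorted cells. ATAC-seq peak lists covered acute ECs (2 libraries), WT cultures (6) and stabilized cultures (2); no list of GFP-negative cells was used here.

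The RNA-seq libraries held from 24284843 to 94686456 estimated read counts. Mitochondrial genes took 10.6% to 24.2% of them in sorted cells and 0.667% to 2.58% in cultures. Endothelial markers checked the labels: all 8 on the list were called higher in acute ECs than in GFP-negative cells, and their summed level was 3024 and 2972 TPM (a length-corrected share of the transcripts in a library) in acute ECs against 20.7 and 8.97 TPM in GFP-negative cells. A gene was called where the edgeR quasi-likelihood test gave an adjusted p under 0.05, the fold change exceeded 2 and no library of the higher group held under 5 TPM. Since the libraries are bulk RNA, fewer pericytes and less RNA per pericyte cannot be told apart.

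The first comparison asks whether sorting for GFP separated ECs from pericyte RNA. RNA of these genes was abundant in both sorted groups: summed over the 10 genes, the level was 580 ± 25.2 TPM (SD, n = 2) in acute ECs and 616 ± 284 TPM (SD, n = 2) in GFP-negative cells. Of the 10 genes, 2 fell in acute ECs (Cspg4 and Notch3), none rose, and 8 were not called; over all 15101 genes tested, 7.56% were called lower. The median log2 difference of the 10 genes was 0.15, against -0.06 over all genes tested. The TPM values of 3 genes (Pdgfrb, Cspg4 and Notch3) were lower in acute ECs with no overlap between the groups, a pattern that 37.1% of all genes tested showed.

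Rgs5 (chr1:169655501-169695813 on GRCm38), a regulator of G-protein signaling and the most abundant of the 10, stood at 195 and 391 TPM in the GFP-negative libraries and at 210 and 322 TPM in the acute ECs. The groups overlapped, and the log2 difference was 0.38 (SE 0.35, edgeR adjusted p = 0.463). Vtn (chr11:78499091-78502324), which encodes vitronectin, a secreted ligand of integrins, gave 112 and 213 TPM in GFP-negative cells against 279 and 148 TPM in acute ECs. Its log2 difference was 0.78 (SE 0.36, edgeR adjusted p = 0.159). Rgs5 and Vtn together made up 73.9% to 87.0% of the summed TPM of the 10 genes in the 4 sorted libraries. At Vtn, transcripts annotated as retaining an intron took 87.1% and 63.7% of the gene's reads in GFP-negative cells and 66.9% and 17.1% in acute ECs.

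Kcnj8 (chr6:142564837-142571614) and Abcc9 (chr6:142587862-142702315) encode the pore, Kir6.1, and the regulatory subunit, SUR2, of an ATP-sensitive potassium channel, and they are neighbors in the genome. Kcnj8 was at 2.59 and 8.14 TPM in GFP-negative cells and at 11.4 and 6.98 TPM in acute ECs. Abcc9 was at 6.35 and 15.6 TPM against 11.2 and 11.5 TPM. Neither difference passed the test (log2 1.20, SE 0.64 for Kcnj8, and 0.50, SE 0.40 for Abcc9). The related channel of pancreatic beta cells, encoded by Kcnj11 and Abcc8, was at most at 0.352 TPM in any of them. The span of Abcc9 overlaps that of an antisense gene over 11868 bases. The authors let the counting program detect the library type, and whether the libraries kept strand is not stated.

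Cspg4 and Notch3 set themselves apart. Cspg4 (chr9:56865033-56899870) encodes the NG2 proteoglycan, which oligodendrocyte precursor cells carry as well as pericytes. It fell from 17.2 and 27.0 TPM in GFP-negative cells to 3.45 and 4.50 TPM in acute ECs, a log2 difference of -2.03 (SE 0.41, edgeR adjusted p = 0.0159). Notch3 (chr17:32120820-32166852), the Notch receptor of mural cells, fell from 29.9 and 43.3 TPM to 8.33 and 8.86 TPM, a log2 difference of -1.84 (SE 0.35, edgeR adjusted p = 0.0127). Retained-intron transcripts took 31.1% and 39.8% of the Cspg4 reads in GFP-negative cells, 28.5% and 45.5% in acute ECs and at most 7.86% in any culture. Both calls were lost when all 14 libraries shared one fit (adjusted p = 0.0608 and 0.0790). Pdgfrb (chr18:61045150-61085061), the receptor for platelet-derived growth factor B, was lower too, at 11.2 and 13.6 TPM against 17.4 and 31.5 TPM. Its log2 difference of -0.68 (SE 0.32, adjusted p = 0.169) was not called, although it was with library sizes alone as the scaling (-1.10, adjusted p = 0.0281).

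None of the remaining 3 genes was called, and their GFP-negative libraries differed widely. Higd1b (chr11:102835849-102838040), a small protein of the hypoxia-induced gene family, was at 23.4 and 48.1 TPM in GFP-negative cells and at 11.7 and 45.2 TPM in acute ECs. Atp13a5 (chr16:29231851-29378732), a P-type transport ATPase, was at 8.11 and 30.6 TPM against 13.1 and 35.5 TPM. Anpep (chr7:79821803-79861059), aminopeptidase N or CD13, was at 2.65 and 9.12 TPM against 2.73 and 2.43 TPM. For each of these the second GFP-negative library was higher than the first by more than the groups differed.

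**Figure D1:**
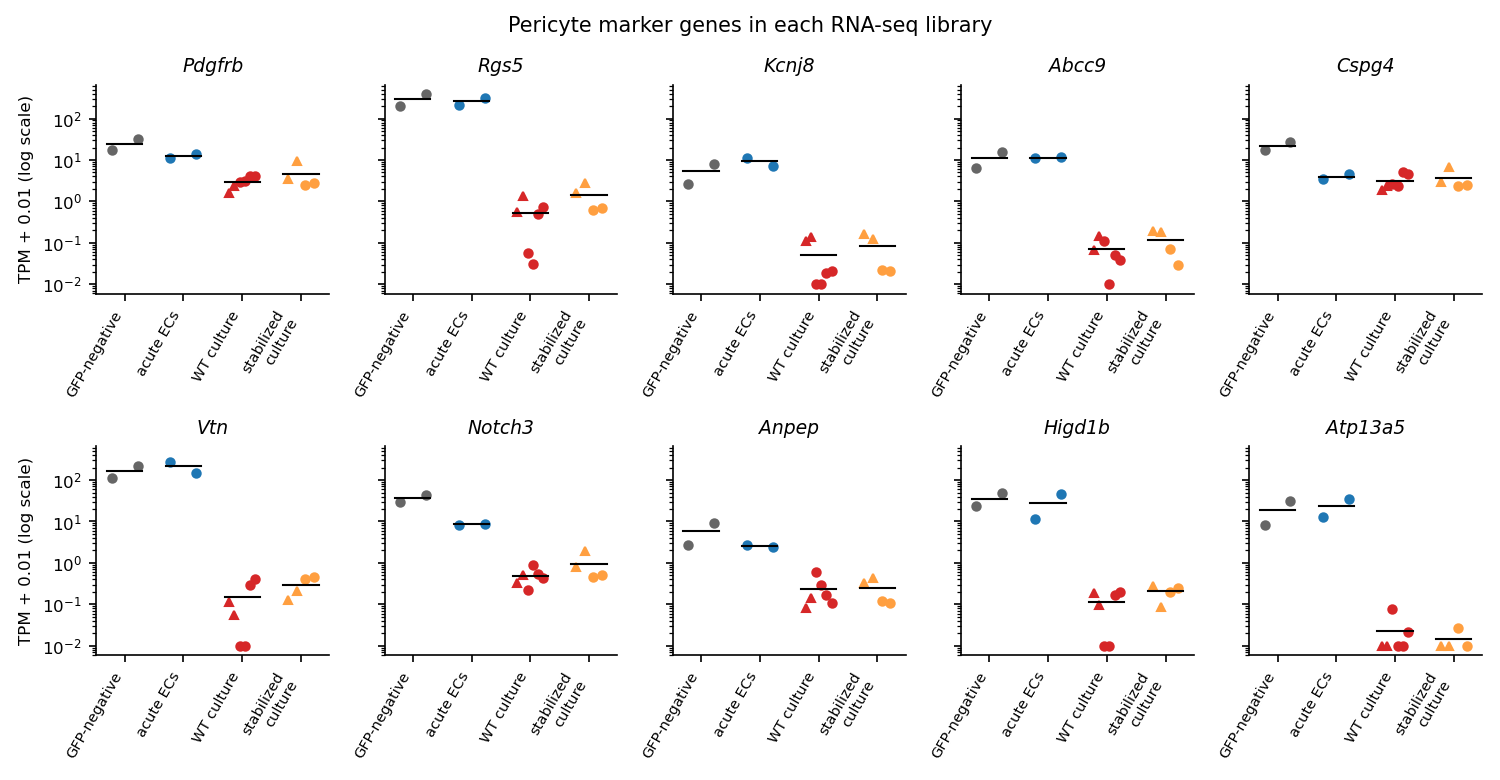
TPM of each of the 10 genes in every RNA-seq library (vertical axis, TPM plus 0.01, log scale), by group (horizontal axis). Points are libraries, triangles are cultures isolated by method A and bars are group means. The sorted groups overlap for 7 genes, and every WT culture lies below both sorted groups for every gene but Cspg4.

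The other cell types of the GFP-negative gate gave a different picture. The level in acute ECs as a percentage of that in GFP-negative cells had a median of 85.2% over the 10 pericyte genes, and over 7892 genes with at least 5 TPM in GFP-negative cells it was 85.0%. The median was 0.480% over 5 microglial markers, 0.808% over 6 markers of oligodendrocyte precursors, 3.29% over 5 neuronal markers (Snap25, Gad1 and Syt1 among them) and 4.27% over 5 astrocyte markers. All 5 astrocyte markers were called lower in acute ECs, as were 4 of 5 neuronal, 3 of 5 microglial and 1 of 6 precursor markers, with none called higher. The precursor markers Olig2, Gpr17, Lhfpl3 and Pdgfra passed the test and the fold limit, as did Rbfox3, Aif1 and Tmem119. These were not called because a GFP-negative library held under 5 TPM. Only Olig1 did not pass (log2 difference -0.55, SE 1.72, edgeR adjusted p = 0.841). Erythrocyte markers moved the other way, with a median of 316% over 4 genes, none of them called, and a summed level from 1295 to 41090 TPM across the 4 sorted libraries. Where a transcript of these lists came from was not tested.

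Among mural and perivascular cells, the markers split. Smooth muscle genes were all called lower in acute ECs (8 of 8), with a median of 5.40% of the GFP-negative level. Myh11, the smooth muscle myosin heavy chain, was at 289 and 437 TPM in GFP-negative cells and at 25.0 and 19.7 TPM in acute ECs. Fibroblast genes had a median of 8.93%, and 4 of 8 were called lower, namely the collagen genes Col3a1, Col1a2 and Col1a1 and the transporter gene Slc6a13. Pdgfra and Lum passed the test and the fold limit but were under 5 TPM in a GFP-negative library, and Dcn and Lama1 did not pass. A list of 10 further mural genes had a median of 74.5%, and 3 of them (Des, Tbx18 and Heyl) were called lower; Des, the muscle intermediate filament desmin, was at 30.9 and 46.0 TPM against 2.44 and 1.86 TPM. The oligodendrocyte precursor genes Olig2 and Sox10 were at 4.78 to 7.25 TPM in the GFP-negative cells and at most at 0.00698 TPM in acute ECs, while Olig1 was at 9.59 and 0.0426 TPM there, beside the fall in Cspg4, a gene those cells share with pericytes. The part of precursors or smooth muscle in the fall of Cspg4 and Notch3 was not tested.

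**Figure D2:**
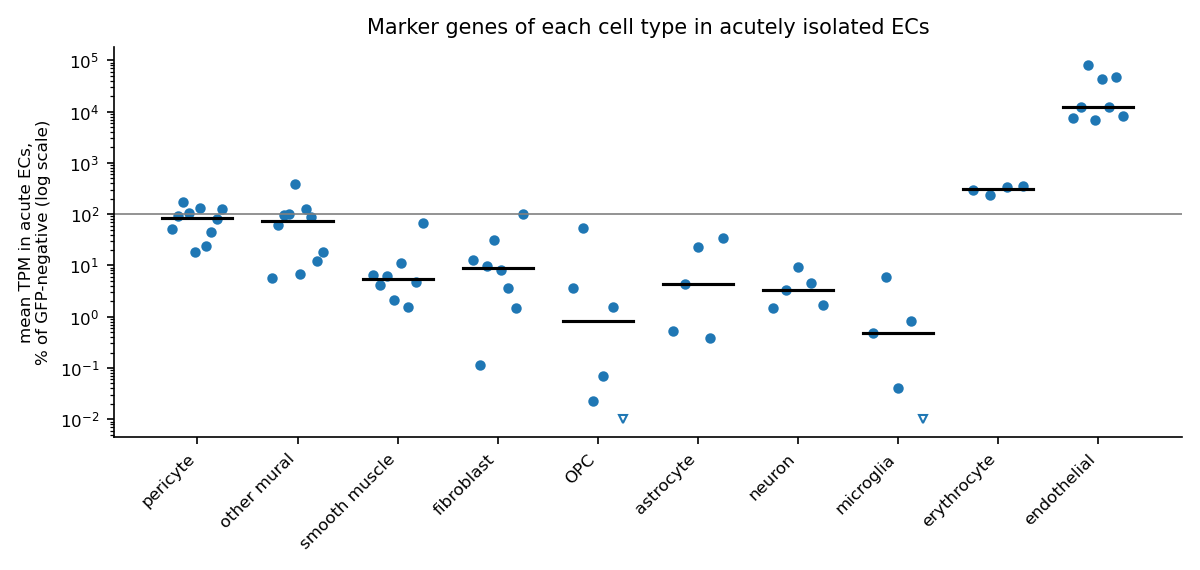
Mean TPM in acute ECs as a percentage of that in GFP-negative cells (vertical axis, log scale) for each gene of the marker lists (horizontal axis). Points are genes, bars are list medians, open triangles at the bottom are genes at 0 TPM in both acute EC libraries, and the grey line marks 100%. Pericyte genes lie about the line, while neuronal, astrocyte, microglial and smooth muscle genes lie mostly below 10%.

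The second comparison asks what happened to these transcripts in ECs cultured with puromycin. Summed over the 10 genes, the level was 7.77 ± 2.46 TPM (SD, n = 6) in WT cultures against 580 TPM in acute ECs. In WT cultures 8 of 10 genes fell relative to acute ECs and none rose, where 10.2% of all 13785 genes tested were called lower. The median log2 change was -8.27 over the 10 genes and 0.10 over all genes tested. In 9 genes all 6 WT cultures were below both acute EC libraries, which held for 16.3% of all genes tested. Relative to GFP-negative cells 8 genes again fell, where 12% of 15223 genes were called lower. In all 10 genes the WT cultures did not overlap the GFP-negative libraries, against 28.3% of all genes tested. The comparisons with acute ECs and with GFP-negative cells share the 6 culture libraries.

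Most of the 10 genes were close to the limit of detection in culture. In WT cultures 7 of the 10 were under 1 TPM in every library, and 5 genes (Kcnj8, Abcc9, Vtn, Higd1b and Atp13a5) were at 0 in at least 1 of the 10 cultures. Rgs5 ranged from 0.0217 to 1.37 TPM in WT cultures, with a median of 0.513 TPM and from 2 to 171 reads, against 210 and 322 TPM in acute ECs. The lowest counts, 4 and 2 reads, were in WT replicates 3 and 4. Its log2 change from acute ECs was -9.97 (SE 1.29, edgeR adjusted p = 0.000602).

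Vtn ranged from 0 to 0.388 TPM in WT cultures, with a median of 0.0747 TPM, and its log2 change from acute ECs was -9.72 (SE 1.26, edgeR adjusted p = 0.000606). All 6 were below both acute EC libraries. No read of Vtn in culture was assigned to a transcript with a retained intron. Higd1b ranged from 0 to 0.184 TPM, with a median of 0.121 TPM and at most 9 reads in a WT culture. Atp13a5 had no read in 4 of the 6 WT cultures, and 1 and 4 reads in replicates 3 and 6. The fitted log2 changes of genes with so few reads depend on the prior count of the fit, so their size is not a bound.

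The subunits of the mural potassium channel went down together. Kcnj8 ranged from 0 to 0.127 TPM in WT cultures (median 0.00984 TPM), and Abcc9 from 0 to 0.139 TPM (median 0.0491 TPM). Relative to acute ECs, the log2 changes were -8.52 (SE 1.11) for Kcnj8 and -8.84 (SE 0.90) for Abcc9, with edgeR adjusted p = 0.00061 and 0.000198. Kcnj8 was the only one of the 10 whose cultures divided by isolation method: 0.103 to 0.150 TPM in the 4 method A cultures, WT and stabilized, and 0 to 0.0117 TPM in the 6 method B cultures. The highest count in any culture was 15 reads, and the other 9 genes overlapped between methods.

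Notch3 and Anpep lay in between. Notch3 ranged from 0.210 to 0.902 TPM in WT cultures (median 0.471 TPM), its mean TPM was 5.62% of that in acute ECs, and its log2 change was -5.56 (SE 0.69, edgeR adjusted p = 0.000489). The span of Notch3 overlaps that of an antisense gene over 21024 bases. Anpep ranged from 0.0726 to 0.610 TPM (median 0.146 TPM), with a mean of 8.78% of that in acute ECs. Its log2 change of -4.48 (SE 0.37, edgeR adjusted p = 8.5e-05) passed the test and the fold limit, but Anpep was not called because acute ECs held under 5 TPM. Against GFP-negative cells, Kcnj8 and Anpep missed the call in the same way, at 2.59 and 2.65 TPM in the first GFP-negative library, and without that library all 10 genes were called lower.

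Pdgfrb and Cspg4 were the exceptions. Pdgfrb ranged from 1.55 to 4.12 TPM in WT cultures, with a median of 2.95 TPM and from 286 to 1912 reads, and its mean TPM was 24.2% of that in acute ECs. Its log2 change on TMM-scaled counts was -3.18 (SE 0.54, edgeR adjusted p = 0.00196), which is 11.0% of the acute level, so the size depends on the scale. Cspg4 ranged from 1.84 to 5.21 TPM, with a median of 2.52 TPM, and its mean TPM was 79.8% of that in acute ECs, against 48.3% on TMM-scaled counts. The cultures overlapped the acute ECs, at 3.45 and 4.50 TPM, and the log2 change of -1.05 (SE 0.72, edgeR adjusted p = 0.258) was not called. Against GFP-negative cells both fell, by log2 changes of -3.96 (SE 0.52) and -3.17 (SE 0.65), with edgeR adjusted p = 0.000251 and 0.00293.

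**Figure D3:**
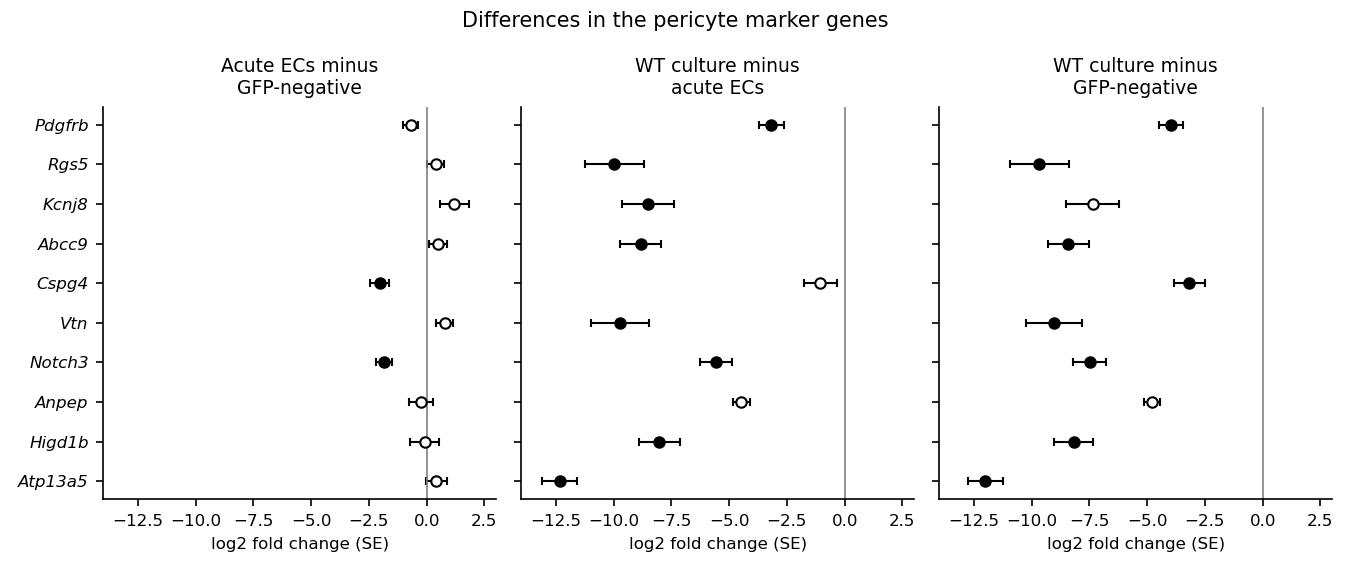
Log2 fold change of each of the 10 genes from edgeR (horizontal axis) in each comparison (panels), with bars of 1 standard error. Filled points were called. The genes scatter about 0 between sorted ECs and GFP-negative cells. In WT cultures they fall relative to both sorted groups, least for Cspg4 and Pdgfrb.

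The makeup of the 10 genes differed between sorted cells and cultures. Pdgfrb and Cspg4 made up 2.60% to 8.34% of the summed TPM in the 4 sorted libraries and 65.4% to 84.9% in the 10 cultures, while the share of Rgs5 and Vtn went from 73.9% to 87.0% down to 0.330% to 19.7%. The ratio of Rgs5 to Pdgfrb in TPM was 11.2 to 23.7 in sorted libraries and 0.00715 to 0.579 in cultures. The ratio of Pdgfrb to Cspg4 was 1.01 and 1.17 in GFP-negative cells, 3.24 and 3.01 in acute ECs and 0.791 to 1.35 in the 10 cultures. The 10 genes thus did not keep the proportions that they had in the sorted cells, and which cells made the remaining transcripts was not tested.

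**Figure D4:**
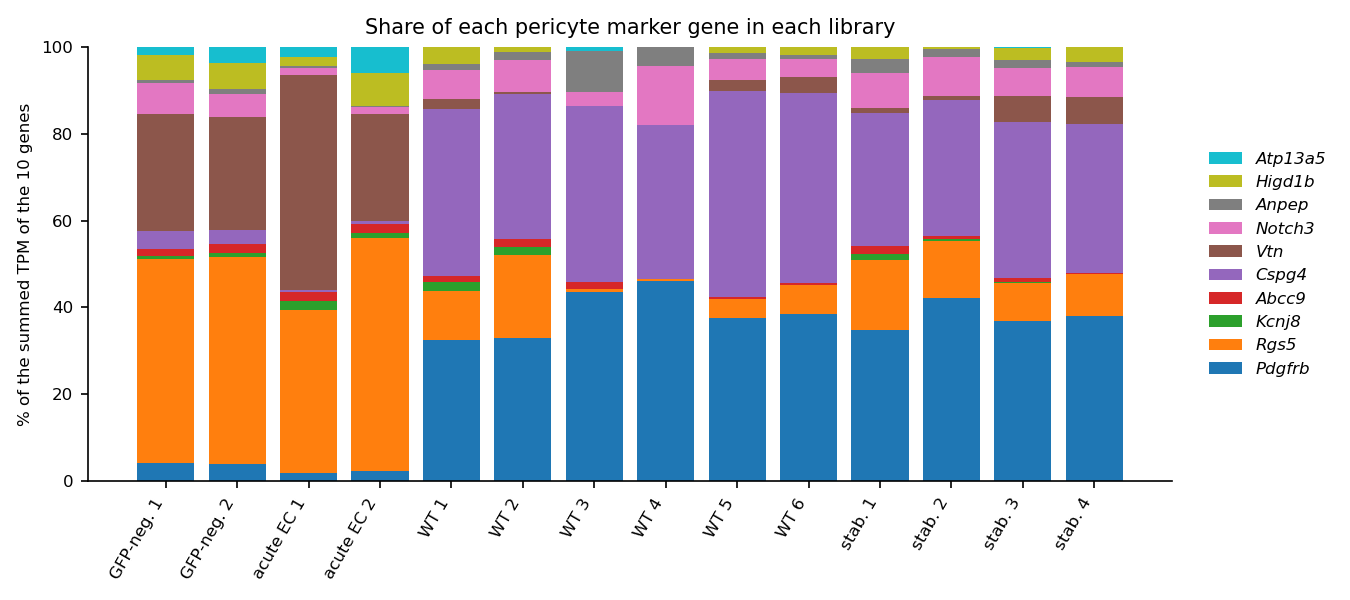
Share of each gene in the summed TPM of the 10 genes (vertical axis, percent) in each of the 14 libraries (horizontal axis). Colored segments are genes. Rgs5 and Vtn fill most of each sorted library, and Pdgfrb and Cspg4 fill most of each culture.

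Other markers in the cultures stood beside these values. Of the 10 further mural genes, 2 fell relative to acute ECs (Art3 and Gper1) and none rose. Heyl, P2ry14 and Ifitm1 passed the test and the fold limit too, but were under 5 TPM in an acute EC library. Their log2 changes were -3.63, -6.825 and -4.175 (edgeR adjusted p = 9.66e-05, 0.00125 and 0.0272). Cd248, also called endosialin, was at 2.53 to 35.6 TPM in WT cultures and at 4.86 and 9.62 TPM in acute ECs. Contractile genes went both ways: Tagln, Acta2 and Cnn1 rose, and Myh11 fell to between 0.502 and 3.11 TPM. Synpo2 passed the test and the fold limit (log2 change -2.79, edgeR adjusted p = 0.00374) but was under 5 TPM in an acute EC library. Acta2, smooth muscle actin, was at 153 and 163 TPM in the method A WT cultures and at 683 to 909 TPM in the method B WT cultures, against 113 and 93.7 TPM in acute ECs. None of the 6 fibroblast genes tested was called. Col1a1 passed the test and the fold limit, with a log2 change of 4.22 (edgeR adjusted p = 0.00105). It was at 2.09 to 20.8 TPM in WT cultures, so some were under 5 TPM, against 0.146 and 0.984 TPM in acute ECs. All 4 erythrocyte markers fell, and of the endothelial markers Emcn rose and Cldn5, Flt1, Kdr and Tek were called lower. For Cldn5 the log2 change was -1.97 (edgeR adjusted p = 0.024), while its mean TPM was 61.8% of that in acute ECs. It was at 440.5 to 774 TPM in WT replicates 1 to 4 and at 92.1 and 118 TPM in replicates 5 and 6. Acute ECs held 874 and 593 TPM, and the paper describes Cldn5 as little changed. No astrocyte, microglial, neuronal or precursor marker was called. All but 1 of these were under 5 TPM in an acute EC library and so could not be called lower. Only 2 of 5 microglial and 2 of 6 precursor markers had enough reads to test. Among the uncalled astrocyte, microglial, neuronal and precursor markers, the log2 changes of Aqp4 and Snap25 were -8.90 and -8.38 (edgeR adjusted p = 0.000196 and 0.000238). Tmem119, a microglial marker, went the other way, with a log2 change of 7.04 (edgeR adjusted p = 0.0116). Aldh1l1, an astrocyte marker, showed no clear change (log2 0.38, SE 1.24, edgeR adjusted p = 0.818). Its mean TPM was 32.9% of that in acute ECs. Tmem119 was at 0.0677 to 4.28 TPM in WT cultures and at most at 0.00485 TPM in acute ECs. Relative to GFP-negative cells, 7 further mural, 5 smooth muscle, 5 fibroblast, 2 precursor, 5 astrocyte, 4 neuronal, 3 microglial and 3 erythrocyte genes fell and all 8 endothelial genes rose. The uncalled precursor, neuronal and microglial genes passed the test and the fold limit there, but were under 5 TPM in a GFP-negative library.

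The ligands and partners of the 10 gene products were followed as a list of 15. In acute ECs 3 were higher than in GFP-negative cells: Pdgfb, the ligand of the Pdgfrb receptor, and the Notch ligands Dll4 and Jag2. The integrin subunit genes Itgav and Itgb5, whose products bind vitronectin, and Rgs4, a relative of Rgs5, were lower. Pdgfb was at 94.9 and 53.2 TPM in acute ECs and at 109 to 187 TPM in WT cultures, a log2 change of 0.28 (SE 0.56, edgeR adjusted p = 0.71), while its receptor gene fell as given above. In WT cultures Itgav and Itgb3 rose relative to acute ECs, and Jag2 and Rgs4 fell. Rgs4 went from 13.0 and 15.4 TPM in acute ECs to at most 0.925 TPM in WT cultures. Relative to GFP-negative cells 6 partners were higher in WT cultures and 2 (Itgb5 and Rgs4) lower.

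The third comparison asks whether stabilized beta-catenin changed these transcripts in culture. No change was called: of the 7 genes with enough reads to test, 0 passed, 0 had an unadjusted p under 0.05, and DESeq2 also called 0. The same fit called 0% of all 12959 genes tested, although 1344 had an unadjusted p under 0.05 and DESeq2 called 18. With the replicate number as a block over replicates 1 to 4, which pairs the isolation methods, 190 genes were called, and 213 in the same libraries without the block. None of the 10 genes was among either. The median log2 difference was 0.47 over the 7 genes and -0.04 over all genes tested.

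Pdgfrb was at 3.40, 9.25, 2.47 and 2.75 TPM in stabilized replicates 1 to 4, and its log2 difference from WT cultures was 0.42 (SE 0.45, edgeR adjusted p = 0.741). Cspg4 was at 2.98, 6.84, 2.41 and 2.47 TPM, a difference of 0.05 (SE 0.54, adjusted p = 0.977). In both genes replicate 2 stood above every WT culture and the other stabilized cultures overlapped them. Notch3 was at 0.771, 1.96, 0.437 and 0.502 TPM, a difference of 1.01 (SE 0.56, adjusted p = 0.538), with replicate 2 again above every WT culture. Rgs5 was at 1.57, 2.85, 0.596 and 0.691 TPM, a difference of 0.89 (SE 0.90, adjusted p = 0.728). Both method A replicates were above every WT culture here.

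The other genes were under 1 TPM in every stabilized culture. Vtn was at 0.117, 0.199, 0.404 and 0.445 TPM, a difference of 0.99 (SE 1.10, edgeR adjusted p = 0.751), and Anpep at 0.321, 0.431, 0.111 and 0.0953 TPM. Abcc9 was at most at 0.181 TPM, Kcnj8 at 0.150 TPM, Higd1b at 0.275 TPM and Atp13a5 at 0.0173 TPM. Their ranges overlapped those of the WT cultures, and Kcnj8, Higd1b and Atp13a5 had too few reads to test.

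The second stabilized well differed from the first in a few genes. Its TPM was 2.72 times that of the first well for Pdgfrb, 2.29 times for Cspg4 and 2.54 times for Notch3, against 1.82 for Rgs5, 1.70 for Vtn, 1.35 for Anpep, 0.939 for Abcc9, 0.768 for Kcnj8 and 0.281 for Higd1b, where the median of 10973 coding genes was 1.06 and 0.765% had a ratio of at least 2. The collagen genes Col1a1, Col1a2 and Col3a1 had ratios of 2.53, 2.53 and 2.45, while the endothelial genes Cdh5 and Pecam1 had ratios of 1.11 and 0.996. Without this well the mean of the stabilized cultures went from 4.47 to 2.88 TPM for Pdgfrb and from 0.917 to 0.570 TPM for Notch3. The part of other cells in this well was not tested.

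Stabilization was also compared within each isolation method, in the 8 cultures read at 36 cycles. Within method A, the difference was 0.88 (SE 0.39, edgeR adjusted p = 0.0943) for Pdgfrb and 0.46 (SE 0.30, adjusted p = 0.233) for Cspg4. Of the 8 genes tested there only Anpep passed the adjusted p, at 0.995 (SE 0.34, adjusted p = 0.0438), where 56% of all genes tested did, and it was not called. Within method B it was -0.52 (SE 0.10, adjusted p = 0.0114) and -0.88 (SE 0.067, adjusted p = 0.000887), both short of the 2-fold limit. These were 2 of 7 genes tested to pass the adjusted p, where 37.1% of all genes tested did. The difference between the methods, method B minus method A, was -1.40 (SE 0.47, adjusted p = 0.0335) for Pdgfrb and -1.34 (SE 0.36, adjusted p = 0.0139) for Cspg4. Neither gene reached 5 TPM in both wells of any set, so 0 of 8 genes tested were called, where 8.98% of all genes tested were. Without that minimum both were, against 15.8% of all genes tested. WT method A wells were C57BL/6J and method B wells Ctnnb1flex3/+;Tie2-GFP, so strain and method cannot be told apart.

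ATAC-seq, which marks open chromatin, was compared as peak lists that MACS2 had called in each library. Peaks were kept at a fold enrichment over local background of at least 2 and a -log10 q of at least 2, which left 31779 and 37384 peaks in acute ECs and 33122 to 98732 in cultures. A peak within 1000 bases of a transcription start lay in both acute EC libraries for 0 of the 10 genes, in all 6 WT cultures for 1 (Kcnj8) and in both stabilized cultures for 2 (Kcnj8 and Pdgfrb). Over 21738 coding genes, the shares were 54%, 52.9% and 61.3%. The only start peak of the 10 in acute ECs was at Vtn, in the first library, where the edge of a peak with its summit at -1296 bases reached the window. The second library held this peak too, with its summit at -1310 bases, but its edge fell short of the window. The starts of these genes were thus mostly without a peak in ECs, acute or cultured.

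Kcnj8 had a peak at its start (chr6:142571049-142571705, with its summit in an exon) in all 8 cultures, at enrichments of 4.69, 5.49, 6.38, 6.10, 4.23 and 5.11 in WT cultures and 5.03 and 4.44 in stabilized cultures. There was none in either acute EC library, although Kcnj8 RNA was higher there. It was 1 of 365 coding genes (1.68%) with a start peak in all 8 cultures and neither acute library. Pdgfrb had a start peak in 5 of 6 WT cultures, at 3.70 to 11.0, and in both stabilized cultures, at 7.04 and 6.79. Rgs5 had no peak in the gene or within 10000 bases in acute ECs, and in cultures it had one only downstream, in WT replicates 5 and 6. At Vtn, the peak whose edge reached the start window in the first acute library was present in all 10 libraries. It lay upstream, its summit at -1300 bases from the start, and within 1000 bases of the start of its neighbor Sarm1.

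Counting the whole gene and 10000 bases on each side, 3 of the 10 genes (Kcnj8, Cspg4 and Anpep) had peaks in all 8 cultures and in neither acute library, which 3.71% of coding genes did. Besides the Kcnj8 start these were 3 intronic regions. In Cspg4, chr9:56873133-56873535 lay 8290 bases downstream of the start, with enrichments of 4.87 to 17.7 in WT and 11.9 and 13.4 in stabilized cultures. A second region, chr9:56882412-56883236, lay 17977 bases downstream, at 5.17 to 17.4 in WT cultures and 9.70 and 10.9 in stabilized ones. In Anpep, chr7:79858578-79859408 lay 1942 bases inside the gene, at 9.09 to 25.4 in WT cultures and 15.8 and 19.1 in stabilized ones. WT replicate 2, with about as many peaks as the acute libraries (33122), held all 4 regions.

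The 151 bases about the summits of the 3 intronic regions are printed because they carried peaks in every culture and in neither acute library. They are plus-strand sequence of GRCm38.p6 and touch no annotated exon. Capitals mark matches to TGANTCA, the motif of the AP-1 family, searched on both strands.
Cspg4 (chr9:56873248-56873398): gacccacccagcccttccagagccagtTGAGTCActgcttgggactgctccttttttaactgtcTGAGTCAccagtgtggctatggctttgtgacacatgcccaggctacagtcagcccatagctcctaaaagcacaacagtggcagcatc
Cspg4 (chr9:56882935-56883085): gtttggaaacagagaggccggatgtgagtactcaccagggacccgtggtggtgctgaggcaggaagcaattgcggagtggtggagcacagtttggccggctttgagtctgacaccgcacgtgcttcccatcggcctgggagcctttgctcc
Anpep (chr7:79859042-79859192): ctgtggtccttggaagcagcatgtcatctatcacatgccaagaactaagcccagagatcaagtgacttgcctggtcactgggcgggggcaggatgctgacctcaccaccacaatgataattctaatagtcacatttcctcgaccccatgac

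The first Cspg4 window held 2 matches to TGANTCA, the nearest centered 8 bases from the summit, and the other windows held none. Windows of the same length with a match made up 27.2% of 92838 peak summits in WT replicate 6 and 5.67% of 37211 in acute EC replicate 1. The ETS core CAGGAA, also searched on both strands, was in 1 of the 3 windows (the second of Cspg4), against 32.7% and 29.7% of summits. The TCF/LEF motif CTTTGAT was in none, against 1.89% and 3.68%. A match is a description of the letters only.

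**Figure D5:**
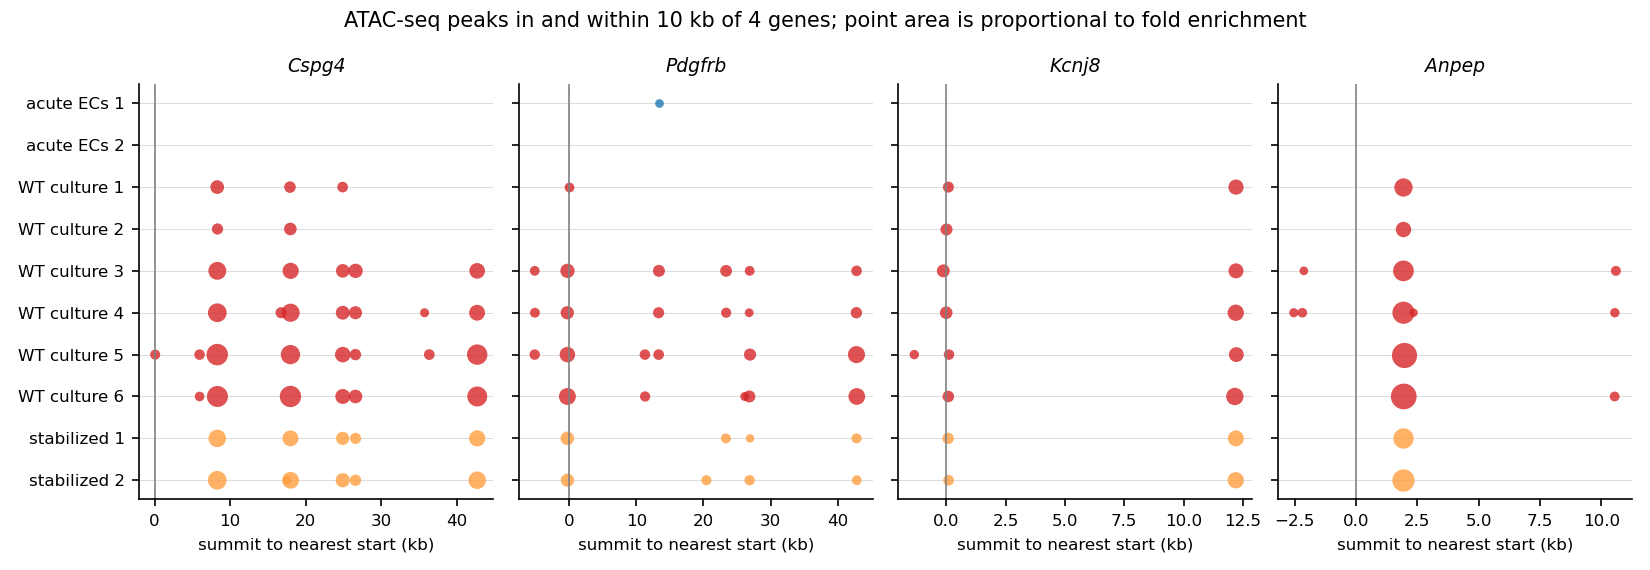
ATAC-seq peaks at Cspg4, Pdgfrb, Kcnj8 and Anpep (panels): the horizontal axis is the distance of the summit from the nearest transcription start in kb, each row is an ATAC-seq library, and the area of a point is proportional to fold enrichment. Rows of the cultures hold peaks at the Kcnj8 start and in Cspg4 and Anpep that the rows of acute ECs lack.

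The genes whose pattern over the 14 libraries was most like the mean of the 10 were found by Pearson correlation of log2(TPM + 1) over 11937 genes, as a description. Sorted cells and cultures form separate clusters of libraries, so the values mostly reflect the difference between them. In order they were Pde5a (0.990), AC141477.1, Slc6a20a, Reg2, Wnk2, Gm17555, Gm17571, Fam81a, Prkcb and Slc38a11 (0.981). Pde5a, a cyclic GMP phosphodiesterase, averaged 83.8 TPM in GFP-negative cells, 25.2 TPM in acute ECs and 0.951 TPM in WT cultures. The transporter gene Slc6a20a averaged 17.2, 9.60 and 0.00570 TPM in these groups. Among the 10 themselves, Rgs5 was closest to their mean (0.985) and Cspg4 farthest (0.774).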

How the data were processed

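RNA-seq was available for 14 libraries and ATAC-seq peak lists for 10. The deposited estimated counts and TPM values were made by the authors with Salmon 0.14.0 against mouse GENCODE transcripts (GRCm38), not normalized for the counts and scaled to the same total in each library for TPM; effective lengths per transcript were deposited too. The authors aligned ATAC-seq reads with HISAT2 2.1.0 and called peaks per library with MACS2 2.1.2; the deposited peak score, fold enrichment ratio, -log10 p and -log10 q are MACS2's own.

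Transcript values were summed per gene over 21820 protein-coding genes, and counts were rounded. edgeR 4.0.16 (R 4.3.3) quasi-likelihood tests with TMM scaling, filterByExpr and Benjamini-Hochberg adjustment were fitted on the libraries of each comparison. Reads of retained-intron transcripts were included. In simulated data with 8-fold changes in 200 genes at a dispersion of 0.2, the fit recovered 75.0% for sorted cells (15101 genes) and 96.5% to 100% in the other 3 comparisons. The simulated libraries were independent, without shared experiments, methods or read lengths, and changes were placed only in genes above a minimum level. The shares recovered therefore do not give the power of the fits to the real libraries or for genes with few reads. Library size scaling, DESeq2 1.42.0, other filters, length offsets, methods and left-out replicates were tried. TPM is a share of a library, so it moves with the mitochondrial and hemoglobin reads of sorted cells, and depth of 24284843 to 94686456 counts leaves counting error only for genes with few reads.

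Samples were grouped by their titles. Same-numbered stabilized and WT cultures deviated together (correlations 0.264, 0.314, 0.269 and 0.308), as the methods are shared by number; in the comparisons with sorted cells the correlations were 0.073, -0.025 and -0.012. The 10 genes and all lists were chosen with earlier results of these data known. Named genes were the 10, the most abundant or called genes of each list, at most 3 or 4, and the 10 most alike. Libraries of cerebrum alone were not analysed here, and a further marker list is not reported here.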

Additional observations from a re-analysis of the deposited data

Results flagged for a closer look

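In 22 groups of 4 to 6 libraries, 1 library stood apart from the rest of its group in 4, where chance gives about 1 in 20. Stabilized replicate 2 was the highest of its group for Pdgfrb, at 9.25 TPM, and for Cspg4, at 6.84 TPM, with gaps of 0.862 and 0.870 of the range. Atp13a5 was highest in WT replicate 3, at 0.0674 TPM, which was 1 read, and in stabilized replicate 3, at 0.0173 TPM, which was 6 reads. This gene was at 0 in 7 of the 10 cultures, so the rate does not hold for it.

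For 2 genes, a test of the difference in the effect of stabilization between isolation methods gave an adjusted p under 0.05. It was the edgeR quasi-likelihood interaction, method B minus method A, with 2 wells of 1 experiment a set. Its p-values thus measure the spread between wells, and in WT wells strain changes with method. The log2 difference was -1.40 (adjusted p = 0.0335) for Pdgfrb and -1.34 (adjusted p = 0.0139) for Cspg4. Neither was called, and without the TPM minimum 15.8% of all genes tested passed. For Pdgfrb, stabilized replicates 1 and 2, the method A wells, were at 3.40 and 9.25 TPM. The causes were not tested.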

How the results depend on the processing

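The number of genes called kept within 1.5 times of the reported one except in the following. Between sorted cells it went from 2 to 0 with all 14 libraries in one fit. For the method difference it went from 0 to 2 without the TPM minimum. The summed TPM, without Rgs5, was 323 in GFP-negative cells and 314 in acute ECs. As a median over the 10 genes it was 24.2, 11.9, 0.147 and 0.314 TPM in GFP-negative cells, acute ECs, WT and stabilized cultures, and rescaled over coding genes without mitochondrial ones 1939, 1610, 15.8 and 21.9. Counting the gene and 10000 bases about it, 2, 5 and 9 of the 10 genes had a peak in every acute, WT and stabilized library. Of 21738 coding genes, 14483, 14890 and 17150 did.

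Leaving out 1 library at a time, the genes called stayed at 2 (sorted cells), 8 (WT against acute ECs) and 0 (stabilized) and ranged from 8 to 10 (WT against GFP-negative cells). The sums ranged from 415 to 817, 562 to 598, 7.12 to 8.37 and 7.90 to 13.0 TPM. Start peaks in every library ranged from 0 to 1 in acute ECs (1 without replicate 2), from 1 to 2 in WT cultures (2 without replicate 2) and stayed at 2 in stabilized cultures. With the replicate number as a block, 2, 8, 8 and 0 of the 10 genes were called, so the pairing changed no call.

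Of 698 single-gene alternatives, 672 kept direction and side of the threshold, 8 came to pass it, 2 ceased to and 16 changed direction, none of these 16 a called gene. Between sorted cells, with library sizes as the scaling, Rgs5 was -0.023 and Atp13a5 -0.027. Leaving out 1 library, Higd1b ranged from -0.91 to 0.32 (0.23 without GFP-negative replicate 2 and 0.32 without acute replicate 1) and Atp13a5 from -0.092 (without acute replicate 1) to 1.04 (-0.008 without GFP-negative replicate 1). Between stabilized and WT cultures, Cspg4 was -0.02, -0.03, -0.14 and -0.15 without WT replicates 1 to 4, -0.12 without stabilized replicate 2, up to 0.37 without WT replicate 5, and -0.22 with method as a term. Within method B, Pdgfrb was -0.52, Cspg4 -0.88 and Anpep -0.15. The method difference of Vtn was 0.08 with library sizes. The cause was not tested. Genes with a few reads in cultures are limited by depth.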
